A study of Mus musculus with 6 samples.

Results

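The 10 genes described here encode the Polycomb proteins best known for repressing the Ink4/Arf locus. They are Ezh1, Ezh2, Eed and Suz12 of Polycomb repressive complex PRC2, and Cbx2, Cbx7, Cbx8, Bmi1, Ring1 and Rnf2 of PRC1. They were chosen by symbol, and all 10 were found among the 21988 symbols of the expression table. The RNA came from mouse embryonic fibroblasts (MEFs) of C57BL/6 embryos, primary cells that stop dividing after repeated passage. Cells were serially passaged and taken at population doubling (PD) 2, PD8 and PD14, where a doubling is the log2 of cells counted over cells seeded, summed over passages. No treatment, transgene or mutation was named for any group, and the embryos' sex and the number of litters were not given in the sources used here. Each group had 1 library made after removal of ribosomal RNA (rRNA-depleted, strand-specific) and 1 made by poly(A) enrichment, 6 in all; values are given by rRNA depletion or by poly(A) enrichment accordingly. The labels do not say that libraries came from separate cultures, so p-values measure only the spread between these samples. With 1 library per method in each group, that spread is how far rRNA-depleted and poly(A) libraries disagree on differences between groups. It is not a spread between libraries made alike.

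Polycomb proteins keep genes silent by marking histones. PRC2 methylates histone H3 at K27: EZH2 or its paralog EZH1 holds the catalytic site, EED reads the finished mark and stimulates the enzyme, and SUZ12 is the scaffold. In canonical PRC1, a chromobox (CBX) protein binds that mark, and RING1 or RNF2, with BMI1 as partner, attaches ubiquitin to histone H2A. Ink4/Arf comprises Cdkn2a, which encodes the cell-cycle inhibitors p16INK4a and p19ARF, and its neighbour Cdkn2b, which encodes p15INK4b. In mouse fibroblasts, loss of Bmi1 is known to release Cdkn2a and to bring on early senescence, the permanent arrest of division.

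Values are the deposited TPM, which are scaled for gene length and for the total of a library, so levels of different genes can be compared within a library. Changes are differences in log2(TPM + 1), fitted with limma with library method as a block, and written with their standard error (SE, n = 2 libraries per group). The added 1 understates changes of genes with low TPM. All 10 genes passed the filter of at least 1 TPM in at least 2 libraries, and adjusted p-values are Benjamini-Hochberg values over the 13332 genes tested, with a threshold of 0.05.

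The poly(A) libraries each summed to 1000000 TPM, against 937217 to 950531 TPM for each rRNA-depleted library, and between 12554 and 12827 genes reached 1 TPM in a library. All 12 fibroblast markers reached 1 TPM in every library. Markers of other cell types were present in part. Over all genes tested at PD14 against PD2, 4.77% fell and 6.41% rose past the adjusted threshold, and 32.0% had an unadjusted p under 0.05 in limma. Muscle markers, of which 5 of 8 were tested and 4 fell, summed to 5.50 and 12.5 TPM at PD14 by rRNA depletion and poly(A) enrichment, against 50.3 and 109 TPM at PD2, and Myod1 did not pass the filter. Epithelial markers, of which 3 of 8 were tested and 2 fell, summed to 5.21 and 2.58 TPM at PD14, against 22.1 and 39.4 TPM at PD2, with Epcam and Cdh1 below the filter and Esrp1 at 0. Macrophage markers, of which 0 of 14 passed the test and 5 had an unadjusted p under 0.05 in limma, summed to 46.3 and 708 TPM at PD14, against 166 and 432 TPM at PD2. The sums went opposite ways by method. Lyz2 held 569 TPM of the PD14 poly(A) sum and 98.5 TPM of the PD2 rRNA-depleted sum, but other markers parted by method too. Ptprc, Cd68, Adgre1, Csf1r, Itgam, Lyz2, Tyrobp, Fcer1g and Aif1 were each lower at PD14 than at PD2 by rRNA depletion and higher by poly(A) enrichment. Of the 5 genes with a low unadjusted p, C1qa, C1qb and C1qc were lower at PD14 than at PD2 by both methods, and Cd14 and Cd74 higher. A low p in this fit favours genes on which the methods agree, so their agreement is not a separate result. Among endothelial markers 5 of 8 were tested and 1 fell, with sums of 18.2 and 6.60 TPM at PD14 against 25.3 and 16.1 TPM at PD2, Pecam1 below the filter and Tie1 at 0. Among neural markers 6 of 9 were tested, 1 rose and 2 fell, with sums of 185 and 150 TPM at PD14 against 125 and 226 TPM at PD2. The gene that rose, Map2, alone held 160 TPM of the PD14 rRNA-depleted sum, against 32.4 TPM at PD2. Nes and Gap43 fell. The part of these cells in the results below was not tested. In bulk RNA, fewer cells of a type and less RNA per cell cannot be told apart.

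In level, the 10 genes formed 3 steps. Eed was the highest of them in all 6 libraries, at 80.9 to 99.3 TPM (median 91.6), above the range of Rnf2 at 37.8 to 69.5 TPM. Bmi1 lay at 31.5 to 60.4 TPM, Ezh2 at 11.6 to 50.3 TPM, Suz12 at 10.1 to 44.2 TPM, Ezh1 at 13.1 to 49.1 TPM and Ring1 at 14.8 to 27.6 TPM. Neighbours in this order, by mean from Rnf2 to Ring1, had overlapping ranges. The CBX genes were lowest, with Cbx8 at 5.24 to 9.47 TPM, Cbx2 at 2.92 to 7.85 TPM and Cbx7 at 0.989 to 6.53 TPM, all below the lowest Ring1 value and overlapping each other.

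**Figure D1:**
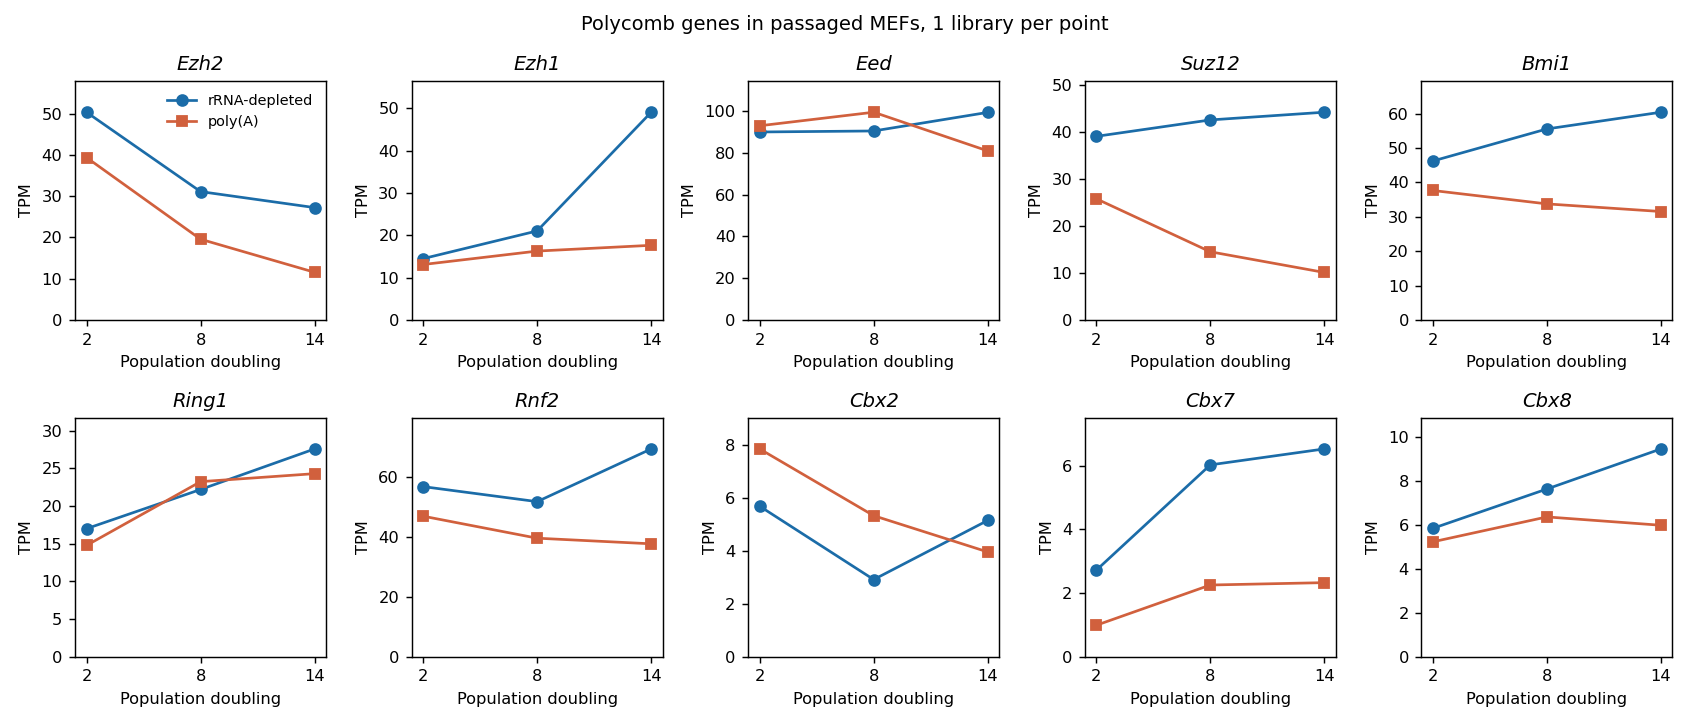
TPM of the 10 Polycomb genes (vertical axes, each from 0) against population doubling, 1 library per point, with rRNA-depleted libraries as circles and poly(A) libraries as squares. Ezh2 is lower at PD14 (27.2 and 11.6 TPM) than at PD2 (50.3 and 39.4 TPM) by both methods. For Suz12, Bmi1, Rnf2 and Eed, PD14 lies above PD2 by rRNA depletion and below it by poly(A) enrichment.

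PD14 was set against PD2 to see which repressors had changed over the whole span of passaging. Ezh2, the main H3K27 methyltransferase of dividing cells, was the 1 gene of the 10 that passed the test, and it fell by 1.27 ± 0.23 on the log2 scale. Ezh1, Cbx7 and Ring1 had higher fitted values at PD14 but adjusted p-values above 0.05. The remaining 6 genes had fitted changes between −0.55 and 0.39. Over all genes tested, 11.2% passed in either direction, 4.77% fell and 6.41% rose, so 1 call among 10 genes lies near the share over all genes. Without the adjustment, 4 of the 10 had p under 0.05, against 32.0% of all genes. The median change was 0.03 for the 10 genes and 0.06 for all genes tested.

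In TPM, both PD14 libraries lay above both PD2 libraries for Ezh1, Cbx8 and Ring1, a pattern shown by 22.4% of all genes tested. They lay below both PD2 libraries for Ezh2 and Cbx2, a pattern shown by 15.8%. The groups overlapped for the other 5 genes. The calls at PD14 rest on few libraries: leaving out the PD8 rRNA-depleted or poly(A) library left 25 or 20 genes called in all, against 1490 with every library, and leaving out the PD14 rRNA-depleted or poly(A) library left 0 or 5.

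**Figure D2:**
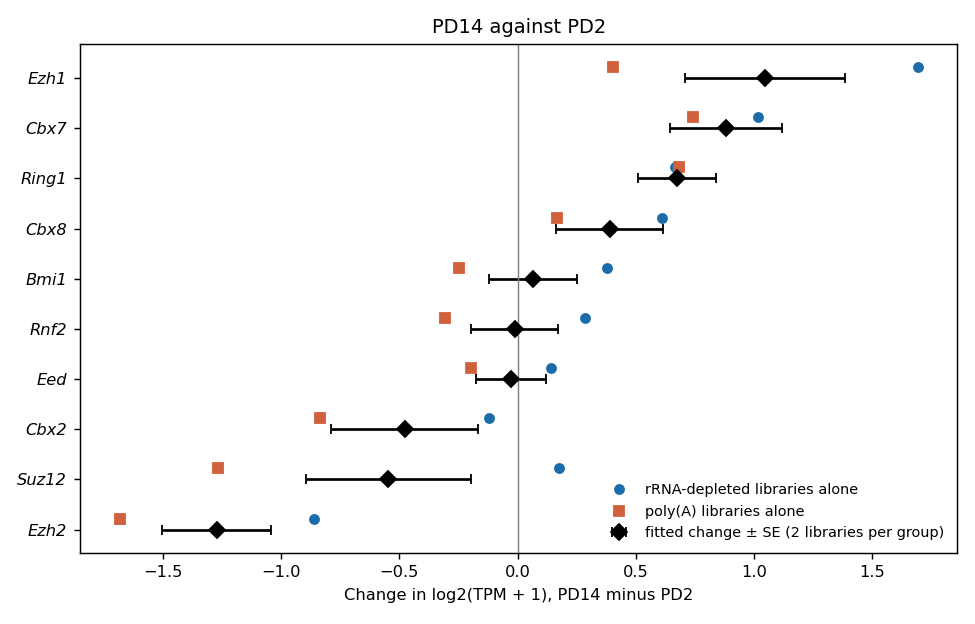
Change in log2(TPM + 1) at PD14 minus PD2 for each gene (horizontal axis), with the rRNA-depleted libraries alone as circles, the poly(A) libraries alone as squares and the fitted change with its SE as diamonds and bars. Ezh2 sits lowest at −1.27, and circles and squares lie on opposite sides of 0 for Bmi1, Rnf2, Eed and Suz12.

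Ezh2 stood at 50.3, 31.1 and 27.2 TPM by rRNA depletion at PD2, PD8 and PD14. By poly(A) enrichment it stood at 39.4, 19.6 and 11.6 TPM. Both methods ordered the groups alike and the PD14 and PD2 libraries did not overlap. The change at PD14 against PD2 was −0.86 by rRNA depletion and −1.68 by poly(A) enrichment, with an adjusted p of 0.0352 in limma. The fitted change of Ezh2 was −0.82 ± 0.23 at PD8 against PD2 (adjusted p = 0.155, limma) and −0.45 ± 0.23 at PD14 against PD8 (adjusted p = 0.899, limma). The 2 steps were not told apart, as the late step minus the early step was 0.38 ± 0.40 (unadjusted p = 0.387, limma). The call depended on the libraries used. It held without the PD2 rRNA-depleted library (−1.55, adjusted p = 0.0148 in limma). It was lost without any other library: the change was −0.99 without the PD2 poly(A) library (adjusted p = 0.0688), −1.27 without the PD8 rRNA-depleted (0.0931) or the PD8 poly(A) library (0.0967), −1.61 without the PD14 rRNA-depleted (0.0555) and −0.94 without the PD14 poly(A) library (0.108), all in limma.

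Ezh1 encodes the paralog that predominates in many non-dividing tissues of the mouse. It stood at 14.5, 21.1 and 49.1 TPM by rRNA depletion at PD2, PD8 and PD14, and at 13.1, 16.3 and 17.7 TPM by poly(A) enrichment. Every PD14 value lay above every PD2 value, but the highest value came from 1 library. The change at PD14 against PD2 was 1.69 by rRNA depletion and 0.40 by poly(A) enrichment, fitted at 1.05 ± 0.34 (adjusted p = 0.106, limma). Without the PD14 rRNA-depleted library the fitted change was 0.46.

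The order of the 2 paralogs was reversed at PD14 relative to PD2 by both methods. The TPM ratio of Ezh2 to Ezh1 was 3.47, 1.48 and 0.555 at PD2, PD8 and PD14 by rRNA depletion. By poly(A) enrichment it was 3.0, 1.20 and 0.655. Ezh2 was thus the more abundant of the pair at PD2 and PD8 and the less abundant at PD14. The log2 ratio at PD14 minus PD2 was −2.64 by rRNA depletion and −2.19 by poly(A) enrichment, a mean of −2.42 ± 0.32 (SD, n = 2 methods), or −2.32 with 1 added to each TPM. The ratio has 1 value per method and group and was not tested. Ezh2 made up 35.7% and 39.6% of the summed Ezh1 and Ezh2 TPM at PD14, against 77.6% and 75.0% at PD2, by rRNA depletion and poly(A) enrichment. The sum itself differed by method, at 76.3 and 29.2 TPM at PD14 against 64.8 and 52.5 TPM at PD2.

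**Figure D3:**
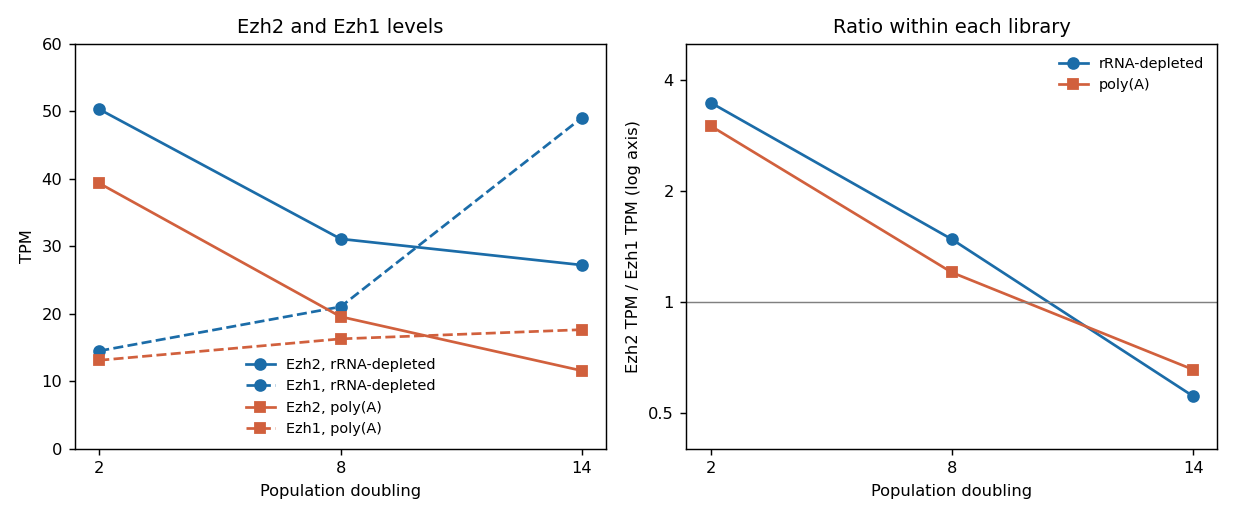
Left, TPM of Ezh2 (solid lines) and Ezh1 (dashed lines) against population doubling. Right, the Ezh2 to Ezh1 TPM ratio in each library on a log axis, with a line at 1; by both methods the ratio is above 1 at PD2 (3.47 and 3.0) and below 1 at PD14 (0.555 and 0.655).

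E2F transcription factors, which switch on genes for DNA replication, are known to bind the EZH2 promoter in human cells. Promoter windows from 250 bases before to 50 after the RefSeq start (GRCm38.p6) were present for 9 of the 10 genes, all but Cbx2. They were searched on both strands for E2F letters (TTTCCCGC, TTTGGCGC, TTTCGCGC or TTTGCCGC), for CCAAT, and for the cell-cycle element CHR (TTTGAA or TTCGAA). E2F letters were found in 2 of the 9, Ezh2 and Suz12, against 2.26% of 32851 promoter windows. CCAAT was found in 5 of the 9 against 37.4%, and CHR letters in 3 of the 9 against 19.2%. A match is a description of the letters only, and no match says only that they are absent from this window. Stretches of the windows of Ezh2 and Suz12 are shown because they hold the E2F letters, and one of Ezh1 because it is the paralog with a higher fitted value at PD14 and its whole window held no match. Each is given 5′ to 3′ on the gene's strand, with matched letters in capitals (E2F letters TTTGGCGC and TTTCCCGC, CCAAT or its complement ATTGG, and TTCAAA, the complement of the CHR letters).
Ezh2, chr6:47595009-47595130, minus strand: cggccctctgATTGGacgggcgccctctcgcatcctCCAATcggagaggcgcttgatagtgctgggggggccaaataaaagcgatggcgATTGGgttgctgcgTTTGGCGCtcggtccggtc
Suz12, chr11:79992856-79992977, plus strand: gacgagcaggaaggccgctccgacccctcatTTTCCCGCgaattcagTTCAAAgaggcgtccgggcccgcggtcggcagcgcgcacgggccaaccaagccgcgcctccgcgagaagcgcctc
Ezh1, chr11:101226464-101226585, minus strand: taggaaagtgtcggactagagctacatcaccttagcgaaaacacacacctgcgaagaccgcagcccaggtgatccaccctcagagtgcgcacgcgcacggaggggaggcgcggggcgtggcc

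Ezh2 and Suz12, the pair with E2F letters, did not share a pattern by both methods. Suz12 stood at 39.1, 42.6 and 44.2 TPM by rRNA depletion at PD2, PD8 and PD14. By poly(A) enrichment it stood at 25.8, 14.5 and 10.1 TPM. The poly(A) values decline in the same order as those of Ezh2, while the rRNA-depleted values do not. The change at PD14 against PD2 was 0.17 by rRNA depletion and −1.27 by poly(A) enrichment, fitted at −0.55 ± 0.35 (adjusted p = 0.333, limma). Without the PD2 rRNA-depleted library the fitted change was −1.13 and passed the test (adjusted p = 0.0387, limma); without the PD2 poly(A) library it was 0.04. Eed, the reader subunit, stood at 89.9, 90.4 and 99.3 TPM by rRNA depletion and at 92.9, 99.3 and 80.9 TPM by poly(A) enrichment. Its groups overlapped, and the fitted change was −0.03 ± 0.15 (adjusted p = 0.913, limma).

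Of the ubiquitin ligases of PRC1, Ring1 gave nearly the same change by both methods. It stood at 17.0, 22.2 and 27.6 TPM by rRNA depletion at PD2, PD8 and PD14, and at 14.8, 23.2 and 24.3 TPM by poly(A) enrichment. Each PD8 and PD14 value lay above both PD2 values. The change at PD14 against PD2 was 0.67 by rRNA depletion and 0.68 by poly(A) enrichment, fitted at 0.67 ± 0.16 (adjusted p = 0.0597, limma), which missed the threshold. Rnf2, the paralog known as RING1B, stood at 56.9, 51.8 and 69.5 TPM by rRNA depletion and at 47.0, 39.6 and 37.8 TPM by poly(A) enrichment. Its groups overlapped, with a fitted change of −0.01 ± 0.18 (adjusted p = 0.971, limma). Rnf2 nonetheless remained the more abundant ligase transcript in every library. The Rnf2 to Ring1 ratio, chosen after the values were seen, was 3.35, 2.34 and 2.52 by rRNA depletion and 3.18, 1.71 and 1.55 by poly(A) enrichment at PD2, PD8 and PD14.

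Bmi1, the partner of these ligases, stood at 46.2, 55.5 and 60.4 TPM by rRNA depletion at PD2, PD8 and PD14. By poly(A) enrichment it stood at 37.6, 33.8 and 31.5 TPM. The methods ordered the groups in opposite ways, and the change at PD14 against PD2 was 0.38 by rRNA depletion and −0.25 by poly(A) enrichment. The fitted change was 0.07 ± 0.19 (adjusted p = 0.838, limma), and its sign turned under median ratio scaling (−0.0162). The ratio of Bmi1 to Pcgf2, its close paralog Mel18, was likewise chosen after the values were seen. It was 1.20, 1.27 and 1.37 by rRNA depletion and 1.53, 1.18 and 0.980 by poly(A) enrichment.

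The 3 CBX genes encode alternative readers of the methyl mark and had different patterns. Cbx7, whose overexpression is known to extend the lifespan of mouse fibroblasts through repression of Ink4/Arf, stood at 2.72, 6.03 and 6.53 TPM by rRNA depletion at PD2, PD8 and PD14. By poly(A) enrichment it stood at 0.989, 2.25 and 2.33 TPM. By each method the PD2 value was the lowest and the PD8 and PD14 values lay close together, but the PD14 poly(A) value lay below the PD2 rRNA-depleted value, so the groups overlap. The change at PD14 against PD2 was 1.02 by rRNA depletion and 0.74 by poly(A) enrichment, fitted at 0.88 ± 0.24 (adjusted p = 0.0741, limma). At these low levels the added 1 shrinks the change, and with a pseudocount of 0.1 it was fitted at 1.20 ± 0.32 (adjusted p = 0.0719, limma).

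Cbx8, which also binds the Ink4/Arf locus in fibroblasts, stood at 5.85, 7.64 and 9.47 TPM by rRNA depletion at PD2, PD8 and PD14, and at 5.24, 6.37 and 5.99 TPM by poly(A) enrichment. Both PD14 values lay above both PD2 values, narrowly in the poly(A) library. The fitted change was 0.39 ± 0.23 (adjusted p = 0.295, limma). Cbx2 stood at 5.69, 2.92 and 5.15 TPM by rRNA depletion and at 7.85, 5.33 and 3.96 TPM by poly(A) enrichment. Its lowest group was PD8 by the first method and PD14 by the other. The fitted change at PD14 against PD2 was −0.48 ± 0.31 (adjusted p = 0.340, limma). Cbx7 exceeded Cbx2 in the PD8 and PD14 rRNA-depleted libraries, at ratios of 2.07 and 1.27 against 0.478 at PD2. By poly(A) enrichment Cbx2 was the more abundant in all groups, with ratios of Cbx7 to Cbx2 of 0.126, 0.423 and 0.588; this ratio was also chosen after the values were seen.

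Most CBX transcript came from a gene outside the 10. Of the summed TPM of the 5 Polycomb CBX genes, Cbx6 supplied 76.2%, 81.0% and 82.4% by rRNA depletion at PD2, PD8 and PD14, and 69.2%, 74.1% and 80.2% by poly(A) enrichment. The share of Cbx7 was 2.38%, 3.86% and 3.35% by rRNA depletion, and 1.21%, 2.36% and 2.04% by poly(A) enrichment. At PD14 minus PD2 it was higher by 0.97 percentage points by rRNA depletion and 0.84 by poly(A) enrichment, a mean of 0.90. The share of Cbx2 was 2.64% and 3.47% at PD14 against 4.98% and 9.57% at PD2, by rRNA depletion and poly(A) enrichment. The share of Cbx8 stayed between 4.85% and 6.68% over all libraries. Shares were not tested.

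**Figure D4:**
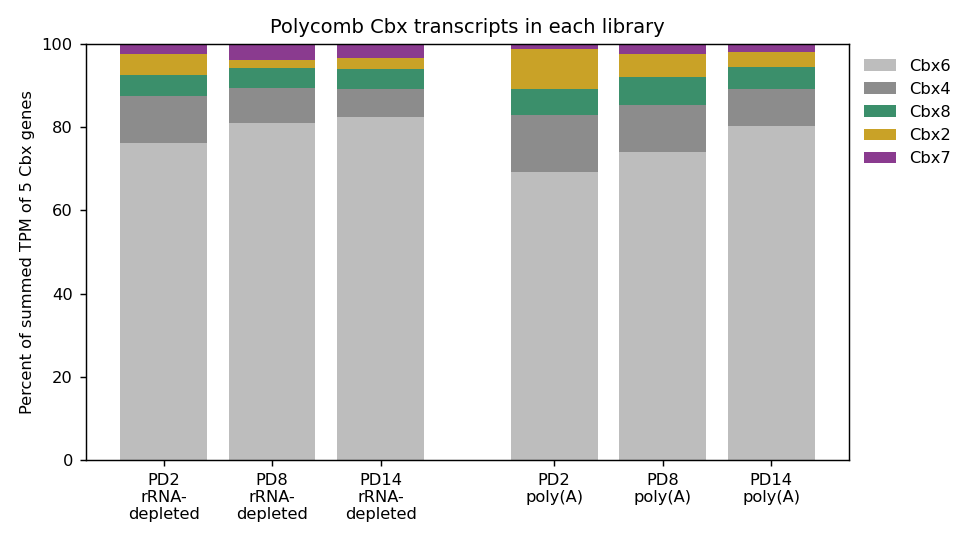
Share of the summed TPM of the 5 Polycomb CBX genes (percent, vertical axis) in each of the 6 libraries, stacked from Cbx6 at the bottom to Cbx7 at the top. Cbx6 fills 69.2% to 82.4% of every bar, and Cbx7 no more than 3.86%.

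The steps between neighbouring groups gave no member. At PD8 against PD2, 0 of the 10 passed the test in limma, with 0.0225% of all genes called. An unadjusted p under 0.05 was found for 3 of the 10, against 20.3% of all genes. At PD14 against PD8, 0 of the 10 passed, with 0.0% of all genes called, and 0 had an unadjusted p under 0.05, against 5.6% of all genes. The late step minus the early step gave 0 of the 10, with 0.0% of all genes called, and 0 at an unadjusted p under 0.05, against 4.25% of all genes. An F test over the 3 groups together gave 0 of the 10, with 1.46% of all genes called, and 3 at an unadjusted p under 0.05, against 24.2% of all genes.

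The library methods parted over several of the 10 genes. At PD14 against PD2, the rRNA-depleted and poly(A) libraries had opposite signs for Eed, Suz12, Bmi1 and Rnf2, 4 of the 10 against 30.1% of all genes tested. At PD8 against PD2 the signs were opposite for 2 of the 10, against 30.3%. At PD14 against PD2 the change was lower by poly(A) enrichment than by rRNA depletion for 9 of the 10, all but Ring1, against 50.045% of all genes. At PD8 against PD2 it was lower by poly(A) enrichment for 7 of the 10, against 42.2%. In the late step, PD14 against PD8, it was lower by poly(A) enrichment for 10 of 10, against 56.8% of all genes, and 6 of the 10 had opposite signs, against 46.8%. The median change of the 10 at PD14 against PD2 was 0.33 by rRNA depletion and −0.22 by poly(A) enrichment, and that of all genes was 0.06 by each method. The median change of the macrophage markers also parted by method, at −1.18 by rRNA depletion and 0.50 by poly(A) enrichment. Among them C1qa, C1qb, C1qc, Cd14 and Cd74 had the same sign by both methods. All the other macrophage markers listed were lower at PD14 by rRNA depletion and higher by poly(A) enrichment. The part of these markers was not tested.

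The other subunits of PRC1 and PRC2 were called about as often as genes in general. Of 27 listed, Epop was not found under this symbol and 26 were tested: 2 rose and 1 fell at PD14 against PD2, 11.5% of those tested against 11.2% of all genes, with a median of −0.11. Phf1, a Polycomb-like accessory protein of PRC2, rose by 0.94 ± 0.15 (adjusted p = 0.0295, limma), at 31.3 and 32.2 TPM at PD14 by rRNA depletion and poly(A) enrichment, against 15.2 and 16.9 TPM at PD2. Cbx6 rose by 0.78 ± 0.12 (adjusted p = 0.0297, limma), at 161 and 91.5 TPM against 87.0 and 56.7 TPM. Phc2, which joins PRC1 complexes into larger bodies, fell by 0.83 ± 0.16 (adjusted p = 0.0413, limma), at 45.0 and 68.0 TPM at PD14 against 89.9 and 109 TPM at PD2. Of the 8 genes of PR-DUB, the complex that removes the H2A ubiquitin, 0 passed the test in limma, against 11.2% of all genes. An unadjusted p under 0.05 was found for 3 of the 8, against 32.0% of all genes. Neither adjusted nor unadjusted p passed for the H3K27 demethylases Kdm6a (−0.35 ± 0.21) and Kdm6b (0.23 ± 0.18). Kdm6b had −0.05 by rRNA depletion and 0.51 by poly(A) enrichment. The calls of Phf1, Cbx6 and Phc2 were lost without either library of PD8 or of PD14, with values of 0.894 to 0.995 for Phf1, 0.73 to 0.82 for Cbx6 and −0.85 to −0.81 for Phc2; those of Phf1 and Phc2 were also lost without the PD2 poly(A) and the PD2 rRNA-depleted library, at 0.97 and −0.62.

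At the Ink4/Arf locus itself, Cdkn2a stood at 40.2, 185 and 190 TPM by rRNA depletion at PD2, PD8 and PD14, and at 62.1, 376 and 519 TPM by poly(A) enrichment. It rose by 2.63 ± 0.21 at PD14 against PD2 (adjusted p = 0.0166, limma). The table has 1 row for Cdkn2a, so transcripts of p16INK4a and p19ARF were not separated. Cdkn2b stood at 79.4, 128 and 106 TPM by rRNA depletion and at 116, 243 and 266 TPM by poly(A) enrichment, with a fitted change of 0.80 ± 0.20 (adjusted p = 0.0650, limma). Of 5 other repressors of the locus, 2 rose and 0 fell, where 6.41% of all genes rose and 4.77% fell. Those that rose were Twist1 by 0.73 ± 0.11 (adjusted p = 0.0276, limma) and Zbtb7a, a repressor of Arf in the mouse, by 0.66 ± 0.14 (adjusted p = 0.0497, limma). Tbx2 (−0.44 ± 0.25), Tbx3 (−0.11 ± 0.51) and Id1 (0.84 ± 0.52) did not pass, and Tbx3 and Id1 had opposite signs by method. Of 6 activators, 2 fell and 0 rose: Ets1 fell by 0.93 ± 0.16 (adjusted p = 0.0332, limma) and Ets2 by 0.83 ± 0.15 (adjusted p = 0.0338, limma). Dmtf1 (0.01 ± 0.24), E2f1 (0.34 ± 0.20), Smarcb1 (−0.39 ± 0.13) and Kmt2a (0.14 ± 0.17) did not pass. ETS1 and ETS2 are known to activate p16INK4a in human cells. Without either library of PD8 or of PD14, the calls of Cdkn2a (2.31 to 2.94), Twist1 (0.72 to 0.73), Zbtb7a (0.52 to 0.80), Ets1 (−1.06 to −0.80) and Ets2 (−0.83 in each) were lost. Those of Zbtb7a (0.76 and 0.55), Ets1 (−0.92 and −0.95) and Ets2 (−0.70) were also lost without the PD2 rRNA-depleted library and, for Zbtb7a and Ets1, without the PD2 poly(A) library.

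Developmental transcription factors are classical Polycomb targets, silent in most cells. Of 22 listed, 9 passed the filter and 3 were at 0 in all libraries. Of the 9, 2 rose and 0 fell at PD14 against PD2, where 6.41% of all genes rose and 4.77% fell. The median change was 0.33, and 4 of the 9 had negative changes. A gene could pass the filter through the group where it was high. Lhx2, a homeodomain factor of limb and forebrain, stood at 5.75, 14.6 and 18.4 TPM by rRNA depletion at PD2, PD8 and PD14, and at 6.53, 14.6 and 14.5 TPM by poly(A) enrichment, a rise of 1.28 ± 0.21 (adjusted p = 0.0305, limma). Hoxd13, a limb patterning factor, rose by 0.72 ± 0.14 (adjusted p = 0.0400, limma). Isl1, another homeodomain factor, had a fitted change of −1.35 ± 0.30 that narrowly missed the threshold (adjusted p = 0.0506, limma); it is named here after its values were seen. The calls of Lhx2 and Hoxd13 were lost without either library of PD8 or of PD14 (1.08 to 1.49 for Lhx2, 0.57 to 0.87 for Hoxd13), and that of Hoxd13 without the PD2 rRNA-depleted library (0.59).

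Ezh2 fell beside a far larger group of cell-cycle genes. Of 21 proliferation genes, 19 fell and 0 rose at PD14 against PD2, where 4.77% of all genes fell and 6.41% rose. Their median change was −1.56 (−1.33 by rRNA depletion and −1.87 by poly(A) enrichment). Mki67, the proliferation marker Ki-67, stood at 36.4 and 7.46 TPM at PD14 by rRNA depletion and poly(A) enrichment, against 121 and 52.1 TPM at PD2, and fell by 2.18 ± 0.25 (adjusted p = 0.0203, limma). Ccna2, cyclin A2, fell by 2.16 ± 0.30 (adjusted p = 0.0235, limma). Both calls were lost without either library of PD8 or of PD14, at −2.59 to −1.76 for Mki67 and −2.60 to −1.72 for Ccna2. Their part in the fall of Ezh2 was not tested.

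**Figure D5:**
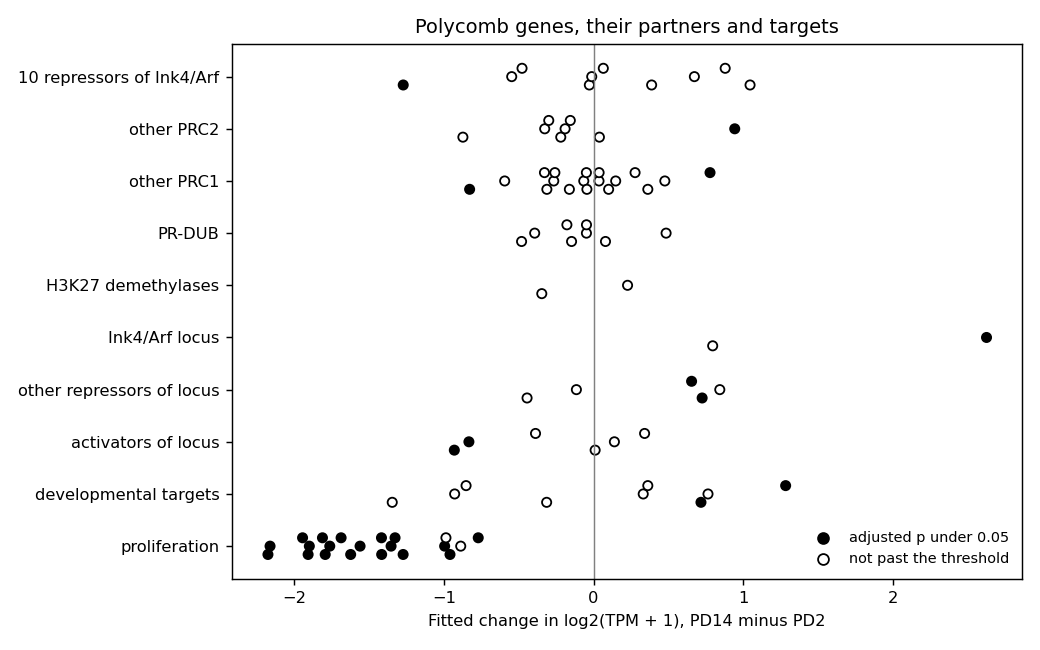
Fitted change in log2(TPM + 1) at PD14 minus PD2 (horizontal axis) for each tested gene of the lists named on the left; filled circles passed an adjusted p of 0.05 in limma. In the top row Ezh2 alone is filled, at −1.27, while 19 of 21 proliferation genes are filled and lie below 0.

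The genes most like each of 3 members were found by the distance between their values of log2(TPM + 1) in the 6 libraries, after the mean of each library method was subtracted. The comparison was over 10699 tested genes with a mean of at least 5 TPM, with predicted genes (symbols of the Gm and Rik kinds) passed over. Cbx7 itself, at a mean of 3.47 TPM, did not reach this cut. The genes named have the smallest of these many distances, so a short distance alone says little. For Ezh2 they were Zfp367, at a distance of 0.13, the replication helicase gene Mcm2 at 0.15, Hnrnpa1 at 0.16, and Aldh1l2 and Ezr at 0.17, against a median distance of 1.45. For Cbx7 they were Plekhg5, Map4k3, Pxmp4, Ppp3cc and Nenf, at 0.12 to 0.17 against a median of 1.05, and the nearest other member was Ring1 at 0.40. For Bmi1 they were Insr, Mto1, Mapk7, Zfp583 and Ap5m1, at 0.046 to 0.079 against a median of 0.60, with Eed at 0.27 and Rnf2 at 0.30.

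In mm10 with GENCODE M21, the 10 genes lie on 7 chromosomes and all are annotated as protein-coding. Ezh2 is at chr6:47530139-47595341, and Cbx2 (chr11:119022962-119031270, plus strand) and Cbx8 (chr11:119036305-119040969, minus strand) are transcribed toward each other. Exons of Cbx7 overlap 100 bases of Apobec3, and exons of Rnf2 overlap 158 bases of Trmt1l. Exons of Ezh2, Eed and Suz12 overlap genes that are not in the table, by 174, 261 and 178 bases. Poly(A) libraries were not stated to be stranded, so reads in these overlaps are uncertain. No annotated pseudogene was named after a member, but reads shared between paralogs could not be examined.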

How the data were processed

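RNA-seq libraries of passaged C57BL/6 MEFs were prepared by TRIzol extraction and standard Illumina protocols, per the labels. The submitters' processing notes name bcl2fastq, cutadapt 1.14, HISAT2 2.0.5, StringTie 1.3.1c and the mm10 build; the role of each tool and the gene annotation are not given in the sources used here. The authors deposited TPM per gene symbol. Depth is unknown because TPM keep no record of how many reads were counted, and no counting error could be given.

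The model was fitted to log2(TPM + 1) by limma 3.58.1 under R 4.3.3, with a term for each group, library method as a block and a mean-variance trend. Genes with at least 1 TPM in at least 2 of 6 libraries were tested, with two-sided p-values and Benjamini-Hochberg adjustment. The fit left 2 residual degrees of freedom, to which limma's prior added 3.22. Replicate 1 was rRNA-depleted and replicate 2 poly(A)-enriched in every group, per the labels, so the replicate number marks library method. Deviations from group means of same-numbered libraries correlated at 0.752 (PD2 and PD8), 0.664 (PD2 and PD14) and 0.854 (PD8 and PD14) across genes, which are not independent replicates. The fit was also run on simulated data with independent errors, a check of the computation that does not bear on the calls made here.

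The 10 genes and the other lists were chosen with earlier results of these data known. All 10 are named, as is every gene of the other Polycomb, locus and target lists that passed at PD14 against PD2, except that of a list with over 4 such genes the 2 with the largest rise and fall are named. Cell type marker lists are given as sums. Promoter sequences and starts are from RefSeq (GRCm38.p6), gene positions from GENCODE M21. Alternatives were another pseudocount, no filter, no block, no trend, other scalings and each library left out.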

Additional observations from a re-analysis of the deposited data

Results flagged for a closer look

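At PD14 against PD2, 4 of the 10 genes changed sign between the library methods, near the share of 30.1% over all genes tested. Each gene has 1 library per method and group, so the difference was not tested. The poly(A) change minus the rRNA-depleted change in log2(TPM + 1) was −1.44 for Suz12, the scaffold of PRC2, with −1.27 in the poly(A) and 0.17 in the rRNA-depleted libraries. It was −0.63 for Bmi1 and −0.59 for Rnf2, the core pair of PRC1, and −0.34 for Eed. All 4 were lower at PD14 than at PD2 in the poly(A) libraries and higher in the rRNA-depleted libraries.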

How the results depend on the processing

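The fall of Ezh2 at PD14 against PD2 kept its direction under every alternative run (−1.35 to −1.27 with all libraries, −1.61 to −0.94 with 1 left out). In limma its adjusted p was 0.0366 with a pseudocount of 0.1, 0.0283 after quantile normalization, 0.0359 after each library was rescaled to 1000000 and 0.0301 after median ratio scaling. It missed the threshold with no filter (0.0664), with no trend (0.0528) and with no replicate block (0.411). The number of the 10 genes called was thus 1, and 0 with no filter and with no replicate block. With no trend it was 1 too, but that gene was Cbx7 (adjusted p = 0.0484). With each library left out it ranged between 0 and 2, and in the F test between 0 and 1. Over all genes, 1490 were called at PD14 against PD2, 404 with no filter, 938 with no trend and 0 with no replicate block, and 0 to 1793 with each library left out. At PD8 against PD2 this count was 3, with 21 at a pseudocount of 0.1, 0 with no filter, block or trend or after quantile normalization, and 0 to 626 with each library left out. The F test called 195, 298 after median ratio scaling, 0 with no filter, block or trend, and 0 to 899 with each library left out. Among the 3 CBX members alone, the share of Cbx7 was higher by 11.9 points at PD14 than at PD2. With a library left out, the group with 1 library was assumed to vary like the others. The cause of these differences was not tested.

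Some fitted changes that had not passed the test changed sign. Median ratio scaling gave Bmi1 −0.0162 at PD14 against PD2, −0.00806 at PD8 against PD2 and −0.00809 at PD14 against PD8, and Eed −0.0104 at PD8 against PD2. Quantile normalization gave Cbx7 −0.000623 at PD14 against PD8. The median of all genes at PD14 against PD2 was 0.06, −0.03 after quantile normalization and −0.02 after median ratio scaling. With each library left out, Suz12 ranged from −1.13 to 0.0405 at PD14 against PD2, −0.921 to 0.254 at PD8 against PD2 and −0.708 to 0.280 at PD14 against PD8. Bmi1 ranged from −0.195 to 0.325, −0.207 to 0.314 and −0.198 to 0.222 in the same order, and Eed from −0.220 to 0.164, −0.0771 to 0.181 and −0.272 to 0.112. Rnf2 ranged from −0.281 to 0.257 at PD14 against PD2 and −0.0955 to 0.442 at PD14 against PD8. At PD14 against PD8, Cbx2 ranged from −0.280 to 0.579, Cbx7 from −0.0195 to 0.152 and Cbx8 from −0.0998 to 0.300. Cdkn2b and the genes of the Polycomb, locus, target and proliferation lists that passed the test were refitted too. None of these changed sign under any alternative or left-out library, but many missed the threshold, most often with a PD8 or PD14 library left out.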
